A study of Sus scrofa with 30 samples.

Results

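DSP, PERP and CST6 are genes of the cell contacts and the surface barrier of lining epithelia, and their transcripts were measured in the teats of 10 pigs on 30 Affymetrix Porcine Genome arrays. Every probe set, the group of short probes that the array reports as 1 value, whose only platform gene symbol is DSP, PERP or CST6 was taken. That gave 4 probe sets of 24123 on the array, and 3 genes of the 6765 that have a probe set with 1 symbol. DSP has 2 probe sets, and PERP and CST6 have 1 each. The paired differences between inverted and normal teats on these same arrays chose the genes, so those differences are given as a description with no test.

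The pigs were peripubertal, came from commercial dam lines and were sampled at slaughter, at a mean end weight of 110 kg. Inverted teats, classed by inspection and palpation, were taken from the affected animals 963, 964, 1037, 1059 and 1103. Normal teats were taken from the same 5 affected animals and from the non-affected animals 950, 957, 1040, 1058 and 1109. Each animal gave an epithelial and a mesenchymal sample for each kind of teat, with 1 array a sample, which makes 6 groups of 5 arrays. Whether both samples came from 1 teat is not given in the sources used here. Each affection status held 1 German Landrace animal (963 and 957), 1 cross of Pietrain with Large White x German Landrace (1103 and 1109) and 3 Large White x German Landrace animals. The samples are pieces of tissue, and how the layers were separated is not given in the sources used here. The series addresses the predisposition of pigs to inverted teats.

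A desmosome is a patch of adhesion at which neighbouring epithelial cells are riveted together and their keratin filaments are anchored. DSP, desmoplakin, is the plakin that ties the keratin filaments to the desmosomal plaque. PERP is a tetraspan membrane protein found in desmosomes, and in the mouse it is a target of the transcription factor TP63. CST6, cystatin M/E, is a secreted inhibitor of cysteine proteases such as cathepsin V, cathepsin L and legumain, and in human and mouse skin it acts in the formation of the cornified layer. The genes are thus known from the skin surface and the ducts that a teat carries.

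The values are log2 probe set levels, in which 1 unit is a 2-fold difference, and levels are compared only within a probe set. The 30th percentile of an array, between 4.49 and 4.83 over the arrays, served as the bound under which a probe set was treated as low. The brighter DSP probe set, used for DSP throughout, lay above it on all 15 epithelial arrays and on 11 of 15 mesenchymal arrays. The probe sets of PERP and CST6 lay above it on all 30. The other DSP probe set lay under it on all 30 arrays, at 1.30 to 4.66, so 3 of the 4 probe sets were tested. The platform table names the CST6 probe set with an Entrez gene ID that the RefSeq gene table does not hold, while that table lists CST6 under another ID. The CST6 values therefore rest on the platform's symbol alone.

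The tissue labels were compared with cell type markers. The mean of 8 luminal epithelial markers, such as KRT8, KRT18, KRT19, EPCAM and CDH1, had a median over arrays of 8.77 in epithelial inverted teats, 9.28 in epithelial normal teats of affected animals and 9.09 in epithelial teats of non-affected animals. In mesenchymal tissue the medians were 8.65 in inverted teats, 5.05 in normal teats of affected animals and 6.14 in non-affected animals. Some mesenchymal pieces thus carried as much luminal transcript as epithelial ones: the highest mesenchymal array of each group reached 9.78, 9.44 and 9.51. Epithelial pieces in turn carried as much fibroblast transcript as mesenchymal ones. The mean of 6 fibroblast markers had medians of 11.01, 10.96 and 11.20 in the epithelial groups, in the same order. Its medians in the mesenchymal groups were 10.92, 10.91 and 10.90. The epidermal markers KRT5, KRT14, TP63, DSG1, DSG3 and PKP1 were not analysed here. KRT10, a keratin of differentiating epidermis, had group means between 6.88 and 7.10 in all 6 groups.

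The epithelial inverted teat of animal 1103 stood apart from its group. Its luminal marker mean was 4.90, against 8.57 to 9.41 on the other 4 epithelial inverted arrays, and CLDN3 and ST14, genes of epithelial junctions and surface proteolysis, were at 0 on it. Its smooth muscle marker mean was 12.02, against 9.72 to 10.21 on the other 4, its endothelial mean 8.62 against 7.67 to 8.08, and its fibroblast mean 10.27 against 10.96 to 11.38. The part of this array's makeup in the results was not tested, and values that move with it are given with and without it. In such pieces of tissue, fewer cells of a type and less RNA per cell cannot be told apart.

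DSP in epithelial tissue lay between 7.64 and 9.63 on 14 of 15 arrays. In epithelial inverted teats it was 8.92 in animal 963, 9.63 in 964, 8.59 in 1037, 8.53 in 1059 and 4.63 in 1103. In the epithelial normal teats of the same animals it was 8.93, 9.56, 7.91, 9.25 and 9.32, in the same order. Only the inverted teat of 1103 lay outside the range of the other epithelial arrays, whose lowest value was 7.64. In epithelial teats of non-affected animals DSP was 9.24 in animal 950, 9.10 in 957, 9.13 in 1040, 7.64 in 1058 and 9.16 in 1109. All 3 epithelial groups overlapped.

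DSP in mesenchymal tissue ranged far more widely. In mesenchymal inverted teats it was 8.57 in animal 963, 9.65 in 964, 4.62 in 1037, 8.14 in 1059 and 7.04 in 1103. In mesenchymal normal teats of the same animals, in that order, it was 8.89, 9.45, 4.58, 3.39 and 4.17. Animals 963 and 964 thus had DSP at an epithelial level in the mesenchymal pieces of both teats, 1037 was low in both, and 1059 and 1103 were low in the normal teat alone. In mesenchymal teats of non-affected animals DSP was 8.47 in 950, 8.87 in 957, 6.37 in 1040, 3.50 in 1058 and 5.27 in 1109. The mean was 7.60 ± 1.91 in mesenchymal inverted teats, 6.10 ± 2.85 in mesenchymal normal teats of affected animals and 6.50 ± 2.24 in mesenchymal teats of non-affected animals (SD, n = 5 each), with overlapping ranges.

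PERP was high and low in much the same pieces as DSP. In epithelial inverted teats it was 10.35 in animal 963, 11.07 in 964, 10.41 in 1037, 10.24 in 1059 and 5.73 in 1103. In epithelial normal teats of the same animals it was 10.41, 10.85, 9.70, 10.69 and 10.83. The inverted teat of 1103 was again the only epithelial array far below the rest. In epithelial teats of non-affected animals PERP was 10.53 in 950, 10.41 in 957, 10.60 in 1040, 9.46 in 1058 and 10.94 in 1109.

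In mesenchymal inverted teats PERP was 10.34 in animal 963, 11.32 in 964, 5.96 in 1037, 10.09 in 1059 and 9.33 in 1103. In mesenchymal normal teats of the same animals it was 10.58, 11.03, 5.85, 6.90 and 8.22. The pieces of 963 and 964 were at an epithelial level and those of 1037 were the lowest, whereas the normal teat of 1103 kept more PERP than that of 1059. In mesenchymal teats of non-affected animals PERP was 9.78 in 950, 10.75 in 957, 7.31 in 1040, 7.14 in 1058 and 7.84 in 1109. Group means were 9.41 ± 2.05 in mesenchymal inverted teats, 8.51 ± 2.26 in mesenchymal normal teats of affected animals and 8.56 ± 1.61 in mesenchymal teats of non-affected animals (SD, n = 5 each).

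CST6 varied less than DSP and PERP in mesenchymal tissue and had its highest group in mesenchymal tissue. In epithelial inverted teats it was 6.86 in animal 963, 6.76 in 964, 6.71 in 1037, 6.26 in 1059 and 5.41 in 1103. In epithelial normal teats of the same animals it was 6.84, 6.48, 6.25, 5.94 and 7.38. The teats of 1103 thus held both the lowest and the highest CST6 level of the affected animals' epithelium. In epithelial teats of non-affected animals it was 6.68 in 950, 6.58 in 957, 6.22 in 1040, 5.28 in 1058 and 6.59 in 1109.

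In mesenchymal inverted teats CST6 was 7.35 in animal 963, 6.95 in 964, 7.15 in 1037, 8.10 in 1059 and 7.0 in 1103. In mesenchymal normal teats of the same animals it was 6.96, 6.70, 5.84, 6.60 and 6.12. The lowest inverted array, 6.95, lay just below the highest normal array, 6.96, so the groups met at their edges. In mesenchymal teats of non-affected animals CST6 was 6.87 in 950, 7.11 in 957, 6.53 in 1040, 6.98 in 1058 and 6.89 in 1109. The mean was 7.31 ± 0.47 in mesenchymal inverted teats, 6.44 ± 0.46 in mesenchymal normal teats of affected animals and 6.88 ± 0.22 in mesenchymal teats of non-affected animals (SD, n = 5 each).

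**Figure D1:**
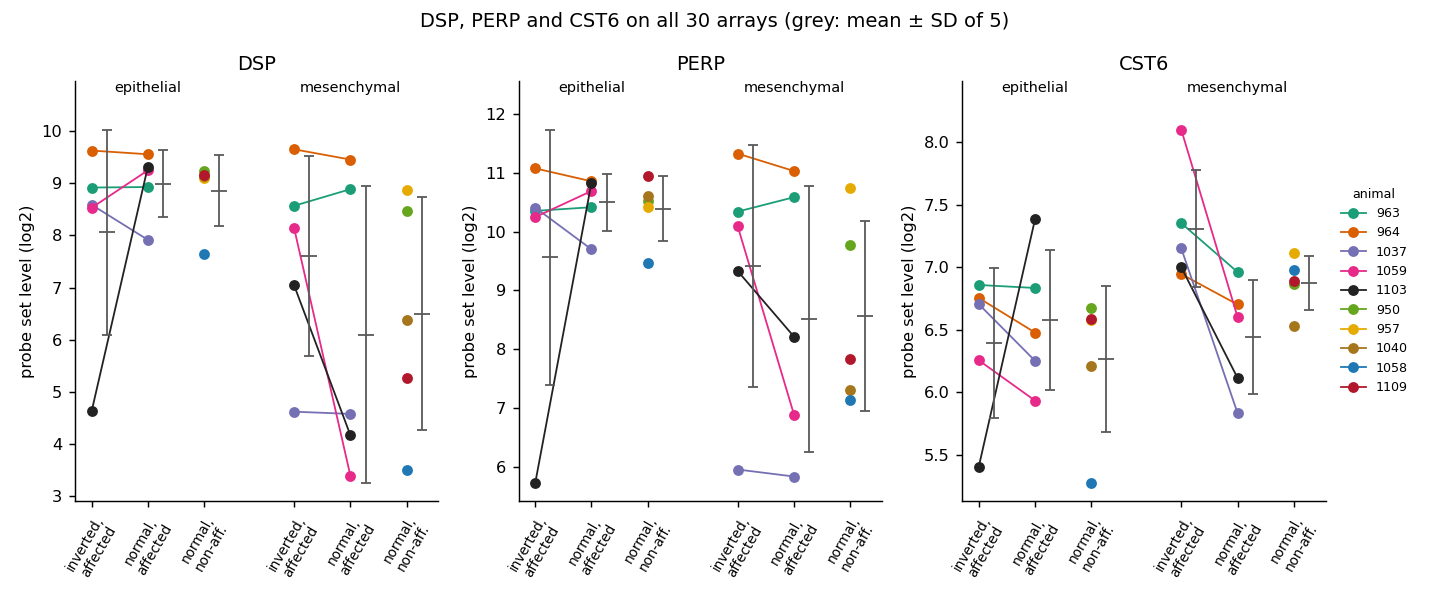
Log2 probe set level (vertical axis) of DSP, PERP and CST6 in the 6 groups (horizontal axis); each point is 1 array, lines join the inverted and normal teats of an affected animal, and grey marks give the mean ± SD of 5 arrays. DSP and PERP of the epithelial inverted teat of animal 1103 sit at 4.63 and 5.73, below the other epithelial arrays, and mesenchymal arrays spread from 3.39 to 9.65 for DSP.

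Ordered by group mean, DSP ran from epithelial normal teats of affected animals (8.99 ± 0.64) through epithelial teats of non-affected animals (8.85 ± 0.68) and epithelial inverted teats (8.06 ± 1.97) to the 3 mesenchymal groups. PERP had the same order over the first 3, with 10.50 ± 0.48, 10.39 ± 0.55 and 9.56 ± 2.17 (SD, n = 5 each). CST6 was highest in mesenchymal inverted teats, then in mesenchymal teats of non-affected animals, and then in epithelial normal teats of affected animals (6.58 ± 0.56). Below these came mesenchymal normal teats of affected animals, epithelial inverted teats (6.40 ± 0.60) and epithelial teats of non-affected animals (6.27 ± 0.58). For all 3 genes every pair of neighbours in these orders had overlapping ranges.

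Between the inverted and the normal teat of the same animal, DSP and PERP in epithelial tissue had small differences of either sign in 4 animals and a large deficit in 1103. The DSP differences, inverted minus normal, were -0.01 in 963, 0.07 in 964, 0.67 in 1037, -0.72 in 1059 and -4.69 in 1103. Their mean was -0.93 ± 2.16 over 5 animals and 0.00 ± 0.57 without 1103 (SD, n = 4). The PERP differences were -0.06, 0.22, 0.71, -0.44 and -5.09 in the same animals, with a mean of -0.93 ± 2.36, and of 0.11 ± 0.49 without 1103. The epithelial means of both genes are thus set by 1 array. The mean of KRT8, KRT18 and KRT19 differed by -3.50 in 1103 and by -0.72 to 0.81 in the other 4 animals. With the arrays as separate samples, limma with Benjamini-Hochberg adjustment called 0% of all 17661 probe sets tested for this difference (303 had an unadjusted p under 0.05). With the animal as a random or fixed block limma also called 0, and 992 and 728 had an unadjusted p under 0.05. These counts are given as background and not as a test of these genes. Of the same probe sets 3.42% were higher and 3.61% lower in the inverted teat of all 5 animals.

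In mesenchymal tissue the same genes were higher in inverted teats of 4 of 5 animals, but mainly in 1059 and 1103. The DSP differences were -0.32 in 963, 0.20 in 964, 0.04 in 1037, 4.75 in 1059 and 2.87 in 1103, with a mean of 1.51 ± 2.21 (SD, n = 5) and a median of 0.20. The PERP differences were -0.24, 0.29, 0.12, 3.19 and 1.11, with a mean of 0.89 ± 1.38 and a median of 0.29. Without animal 1059 the means were 0.70 for DSP and 0.32 for PERP. DSP in the normal piece lay under the 30th percentile in 1059 (3.39 against 4.53) and in 1103 (4.17 against 4.49). The keratin mean of the normal piece of 1103, 2.38, lay under it too. The sizes of these DSP and keratin differences, and of the DSP mean, are therefore uncertain. The luminal keratin mean moved with them, with differences of 3.87 in 1059 and 6.38 in 1103 against -0.21 to 0.74 in the other 3 animals, and its part in the DSP and PERP differences was not tested.

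CST6 alone of the 3 genes was higher in the mesenchymal inverted teat of every affected animal. Its differences were 0.39 in 963, 0.24 in 964, 1.32 in 1037, 1.496 in 1059 and 0.88 in 1103. The mean was 0.87 ± 0.55 (SD, n = 5), and leaving out each animal in turn gave means from 0.71 to 1.02. Animal 1037, whose keratin mean differed by 0.74 and whose DSP hardly differed, had the second largest CST6 difference. Its DSP was near the 30th percentile in both pieces, at 4.62 against 4.56 (inverted) and 4.58 against 4.66 (normal). The keratin mean of its normal piece, 4.46, lay under that bound too. A DSP or keratin difference in 1037 can therefore hardly be read. Of all 17839 mesenchymal probe sets tested, 4.51% were higher and 0.785% lower in the inverted teat of all 5 animals. With the arrays as separate samples limma called 0% with Benjamini-Hochberg adjustment (78 had an unadjusted p under 0.05). With the animal as a random or fixed block limma also called 0, and 535 and 540 had an unadjusted p under 0.05. CST6 was among the genes chosen on this difference, so nothing is read from these shares.

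In epithelial tissue the CST6 differences were 0.02 in 963, 0.28 in 964, 0.45 in 1037, 0.32 in 1059 and -1.98 in 1103. The sign was positive in 4 of 5 animals. The mean was -0.18 ± 1.02 (SD, n = 5) and 0.27 ± 0.18 without 1103. In 1103 the deficit comes both from the lowest inverted and from the highest normal level of the 5 animals.

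**Figure D2:**
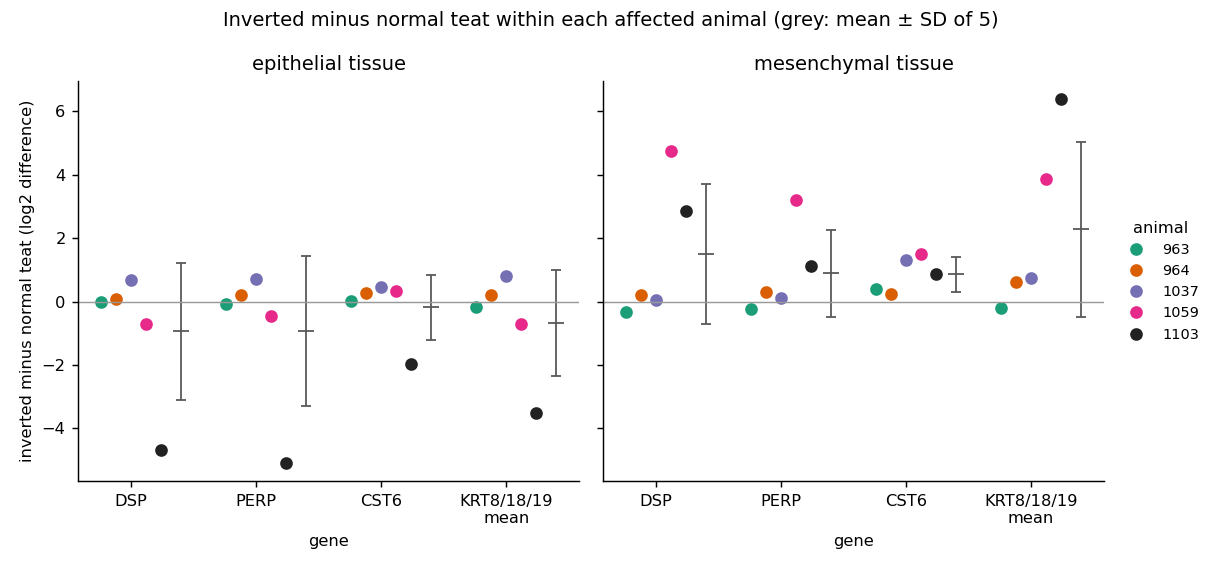
Inverted minus normal teat (log2 difference, vertical axis) for DSP, PERP, CST6 and the luminal keratin mean (KRT8, KRT18, KRT19), in epithelial (left) and mesenchymal (right) tissue; points are the 5 affected animals and grey marks the mean ± SD. Animal 1103 lies at -4.69 and -5.09 for epithelial DSP and PERP, and all 5 animals lie above 0 for mesenchymal CST6.

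Inverted teats were also set beside the normal teats of non-affected animals, as values only. In epithelial tissue the group means differed, inverted minus non-affected, by -0.80 for DSP, -0.83 for PERP and 0.13 for CST6. Without the inverted array of 1103 these differences were 0.06, 0.13 and 0.38, so the deficits of DSP and PERP rest on that array. In mesenchymal tissue they differed by 1.11 for DSP, 0.85 for PERP and 0.43 for CST6. The ranges overlapped in all 6 cases. These differences share the inverted arrays with the paired ones above.

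The normal teats of affected animals were set against those of non-affected animals with limma, with the 3 groups of a tissue in 1 fit. The normal teats of affected animals also enter the paired differences that chose the genes, so the fit is no independent test of DSP, PERP or CST6, and only sizes and errors are given for them. In epithelial tissue the differences, affected minus non-affected, were 0.14 ± 0.70 for DSP, 0.11 ± 0.74 for PERP and 0.31 ± 0.33 for CST6 (SE, 5 animals a group). Without the inverted array of 1103, which shares in the estimate of the spread, the SE was 0.35, 0.28 and 0.29 for the 3 genes in that order. In mesenchymal tissue the differences were -0.40 ± 1.32 for DSP, -0.05 ± 1.12 for PERP and -0.43 ± 0.25 for CST6 (SE). Over all probe sets 0% passed an adjusted p of 0.05 in either tissue by limma with Benjamini-Hochberg adjustment (unadjusted p under 0.05 for 420 epithelial and 201 mesenchymal probe sets). The CST6 difference was positive in epithelial and negative in mesenchymal tissue, and the ranges of the groups overlapped in both.

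The tissue comparison used the 10 arrays of the non-affected animals, which the choice of the genes did not use. DSP was higher in the epithelial sample of all 5 animals, by 0.77 in 950, 0.23 in 957, 2.76 in 1040, 4.13 in 1058 and 3.89 in 1109. The mesenchymal DSP of 1058 lay under the 30th percentile (3.50 against 4.55), so the size of its difference is uncertain. PERP was higher in 4, by 0.75 in 950, 3.29 in 1040, 2.33 in 1058 and 3.10 in 1109, and differed by -0.33 in 957. CST6 ran the other way and was lower in the epithelial sample of all 5 animals, with differences of -0.19 in 950, -0.54 in 957, -0.31 in 1040, -1.70 in 1058 and -0.30 in 1109. Markers of muscle and fat moved with the tissue as well. The mean of 6 skeletal muscle markers had a median of 2.66 (1.59 to 8.85) in epithelial and 11.23 (2.74 to 12.50) in mesenchymal samples, and that of 4 adipocyte markers 8.68 (7.44 to 9.92) and 10.99 (10.53 to 11.65). Their part in the differences of DSP, PERP and CST6 was not tested. Higher in epithelial tissue in all 5 animals were 10.4% of the 17130 probe sets tested, and lower in all 5 were 20.3%.

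Group means for this comparison were 8.85 ± 0.68 in epithelial and 6.50 ± 2.24 in mesenchymal tissue for DSP, 10.39 ± 0.55 and 8.56 ± 1.61 for PERP, and 6.27 ± 0.58 and 6.88 ± 0.22 for CST6 (SD, n = 5 each). With the 10 arrays as separate samples none of the 3 differences passed limma's test with Benjamini-Hochberg adjustment: 2.36 ± 0.88 for DSP (SE, adjusted p = 0.12), 1.83 ± 0.65 for PERP (adjusted p = 0.10) and -0.61 ± 0.26 for CST6 (adjusted p = 0.16). In that fit 8.27% of all probe sets passed. Both samples come from the same animal, and with the animal as a random replicate block DSP and PERP passed (limma adjusted p = 0.033 each), while 21.7% of all probe sets did (7.43% higher in epithelial and 14.2% in mesenchymal tissue), and CST6 did not (adjusted p = 0.067). With the animal as a fixed block DSP had adjusted p = 0.042 by limma, PERP 0.055 and CST6 0.11. Over all 9 alternatives limma's adjusted p ran from 0.033 to 0.39 for DSP, from 0.033 to 0.38 for PERP and from 0.067 to 0.33 for CST6. Without animal 1058 the CST6 difference was -0.34.

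The number of probe sets that pass in this tissue comparison depends on single animals: 1417 passed by limma with all 5, 2520 without 950, 124 without 957, 926 without 1058, and 0 without 1040 or without 1109. At an unadjusted p under 0.05 the last 2 fits held 3124 and 2636 probe sets, against 4534 with all 5 animals. Of the 1417, 321 had their higher level in epithelial and 1096 in mesenchymal tissue. After quantile normalization the split was 751 to 666. That scaling left the directions of the 3 genes as they were, with differences of 2.51 for DSP, 2.11 for PERP and -0.56 for CST6.

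In the normal teats of affected animals DSP was also higher in all 5 epithelial samples, with a mean difference of 2.90 ± 2.74, and PERP in 3 of 5, with 1.98 ± 2.03 (SD, n = 5). The difference was near 0 in 963 and 964, where DSP differed by 0.04 and 0.10, and large in 1059 and 1103, where it differed by 5.86 and 5.15. The mesenchymal DSP of 1037, 1059 and 1103 lay under the 30th percentile, so the sizes of their DSP differences are uncertain. In inverted teats the mean differences were 0.46 ± 2.28 for DSP and 0.15 ± 2.86 for PERP, and animal 1103 was reversed, at -2.41 and -3.60. Without 1103 the means were 1.17 for DSP and 1.09 for PERP. Leaving out each animal in turn gave -0.42 to 1.17 for DSP and -0.92 to 1.09 for PERP, so neither mean has a stable sign. CST6 in inverted teats was lower in the epithelial sample of all 5 animals, with a mean difference of -0.91 ± 0.75 (-0.74 without 1103), and every epithelial array lay below every mesenchymal one. Of the 17130 probe sets, 27.6% were lower in the epithelial inverted sample of all 5 animals and 11.9% had such ranges without overlap. In normal teats of affected animals the CST6 difference was 0.13 ± 0.74, lower in 3 of 5, and -0.15 without 1103. These values on affected animals use the arrays on which the genes were chosen and carry no test.

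**Figure D3:**
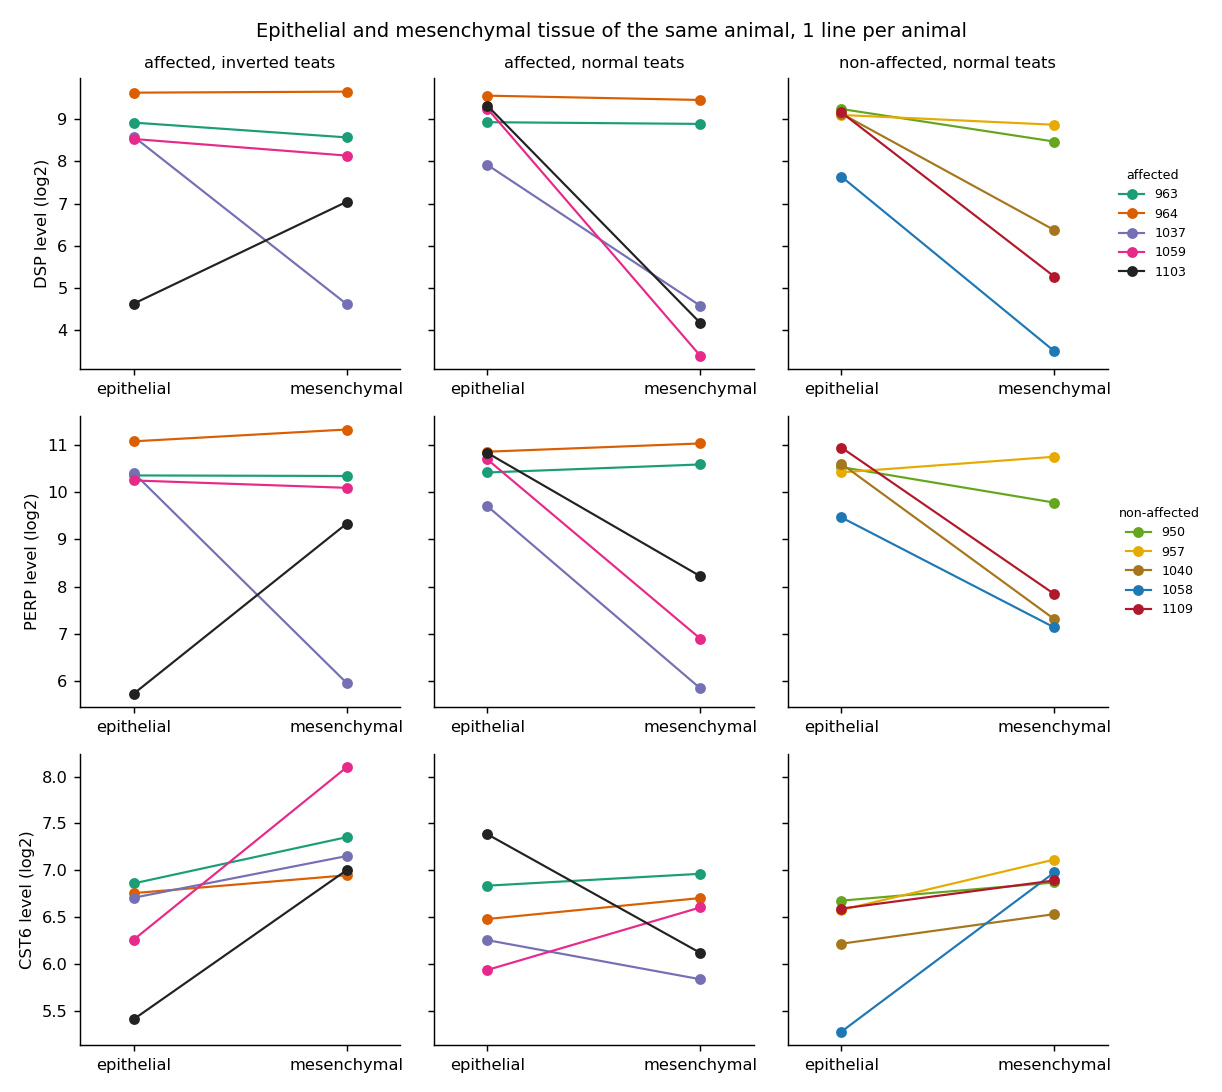
Log2 level (vertical axis) of DSP, PERP and CST6 (rows) in the epithelial and mesenchymal sample of the same animal (horizontal axis), 1 line per animal, for inverted teats, normal teats of affected animals and normal teats of non-affected animals (columns). Lines for DSP and PERP are flat in animals 963, 964 and 957 and steep in 1037 and 1109, and CST6 lines climb toward mesenchymal tissue in all inverted and all non-affected teats.

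DSP and PERP moved together from array to array, and CST6 followed them loosely. Over the 15 epithelial arrays Pearson's r between DSP and PERP was 0.985 (Spearman's rho 0.954), and over the 14 without the inverted teat of 1103 it was 0.954. Over the 15 mesenchymal arrays it was 0.915. Between DSP and CST6 r was 0.68 in epithelial tissue, 0.595 without that array, and 0.442 in mesenchymal tissue. These are descriptions: 5 animals enter each tissue with both teats, all values of an array share its scaling, and the arrays share differences in cell makeup. The r between the 2 DSP probe sets was 0.511 over all 15 epithelial arrays, -0.134 over the 14 and -0.139 over the mesenchymal ones, with the second probe set under the 30th percentile throughout.

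In mesenchymal tissue the luminal keratin mean ran with DSP (r = 0.946, 15 arrays) and PERP (r = 0.852), and less with CST6 (r = 0.519). The normal mesenchymal piece of 1103 stood off this relation, with PERP at 8.22 while KRT18 was at 0 and the keratin mean was 2.38, the lowest of all arrays. That of non-affected animal 1058 lay likewise, with PERP at 7.14 and a keratin mean of 2.63. The normal mesenchymal piece of 1037 had less PERP, 5.85, at a keratin mean of 4.46. The inverted epithelial piece of 1103 had the lowest PERP of all arrays, 5.73, at a keratin mean of 6.75. In epithelial tissue r with the keratin mean was 0.949 for DSP, 0.957 for PERP and 0.679 for CST6 over 15 arrays, and 0.746, 0.763 and 0.591 for the same genes over the 14 without that array.

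**Figure D4:**
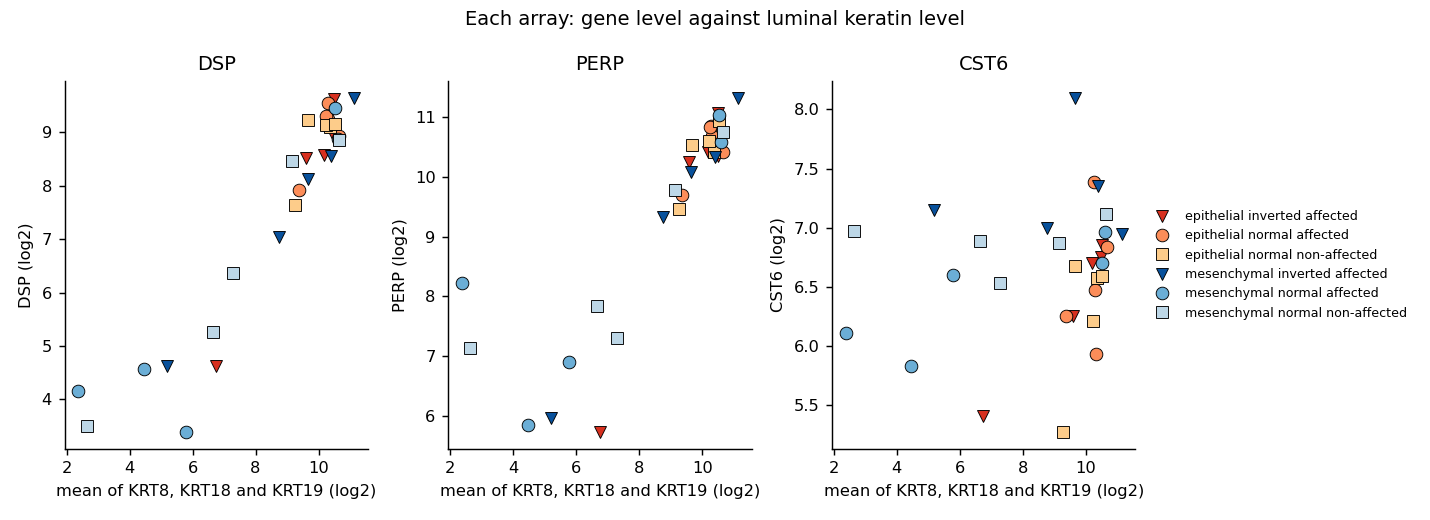
Log2 level of DSP, PERP and CST6 (vertical axes) against the mean log2 level of KRT8, KRT18 and KRT19 (horizontal axes) on all 30 arrays, with colour and symbol for the 6 groups. DSP and PERP fall along a rising band, with r of 0.946 and 0.852 in mesenchymal tissue. CST6 follows the keratin level more loosely, with r of 0.519 in mesenchymal tissue. In epithelial tissue its r is 0.679, and 0.591 without the inverted teat of animal 1103.

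The genes whose level was most like that of DSP differed between tissues and with the array of 1103. Among 6012 genes in epithelial tissue (Pearson's r, 15 arrays) these were FOXA1, a forkhead factor of glandular epithelium, with r = 0.986, then PERP, ESRP1, an epithelial splicing factor, with 0.982, TSTD1 with 0.980 and EPCAM, an epithelial adhesion molecule, with 0.980. Without the inverted teat of 1103 PERP came first, followed by ATP1B1, a sodium pump subunit, with 0.940, SPINT2, an inhibitor of surface serine proteases, with 0.938, FOXA1 with 0.931 and HMGN1 with 0.927. Among 6100 genes in mesenchymal tissue the nearest were SPINT2 (0.982), TSTD1 (0.965), the tight junction gene CLDN3 (0.962), GATA3, a factor of luminal cells, and GRAMD2B (0.958 each). SPINT2 was thus near DSP in both tissues.

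For PERP the nearest in epithelial tissue were LOC100737483 with r = 0.987, DSP with 0.985, ESRP1 and the adhesion protein gene MPZL2 with 0.984 each, and FOXA1 with 0.983. Without the inverted teat of 1103 they were DSP, HMGN1 (0.932), ATP1B1 (0.929), SERPINA1 (0.917) and TFAP2B (0.900). In mesenchymal tissue SPINT2 and POSTN, the matrix protein periostin, had 0.958 each, CLDN4 0.946, and CLDN3 and CDH1 0.944 each. POSTN is the 1 gene among these that is best known from connective tissue.

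CST6 had other neighbours and weaker ones. In epithelial tissue they were IST1 (r = 0.893), CREB3L4 (0.858), the gap junction gene GJB1 and the copper transporter gene SLC31A1 (0.856 each) and S100A14 (0.855), an S100 protein of surface epithelia. IST1 and S100A14 came first and second without the inverted teat of 1103, with 0.861 and 0.849. In mesenchymal tissue they were TRMT2B (0.844), CDV3 (0.816), C7H6orf52 (0.815), HAND1 (0.743) and CD69 (0.736). CDV3 had a Spearman rho of only 0.471. No gene was among the nearest 5 of CST6 and of DSP or PERP in the same tissue.

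The other measured desmosome genes had smaller tissue differences than DSP and PERP. Of 17 genes on the desmosome list 5 were measured and tested: DSP, PERP, JUP, PKP4 and PPL. In the tissue comparison of non-affected animals 1 of the 5 passed, and the median difference was 1.05, against -0.05 over all probe sets, of which 1.87% were called higher in epithelial tissue. The 1 that passed was PKP4, plakophilin 4 of cell junctions, with 6.52 ± 0.31 in epithelial and 5.48 ± 0.55 in mesenchymal tissue (SD, n = 5 each), a difference of 1.05 ± 0.27 (SE, limma adjusted p = 0.036, higher in 5 of 5 animals). With the animal as a random block 3 of the 5 passed, DSP, PERP and PKP4, while 7.43% of all probe sets were called higher in epithelial tissue. JUP, plakoglobin, which links cadherins to desmoplakin, had a difference of -0.52, and PPL, the cornified envelope plakin periplakin, of 0.13. In the paired teat differences JUP and PKP4 had epithelial means of 0.03 and 0.09, and PPL had -0.26, or -0.02 without 1103. Without animal 1040, or without 1109, no gene of this list or of those that follow passed.

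The barrier list, of which CST6 is a member, held no gene that passed in the fit without a block. Of 47 cornified envelope and barrier genes 7 were measured and 5 tested, and 0 of the 5 passed by limma (1 with the animal as a random block). Differences, epithelial minus mesenchymal, were 0.73 for S100A14, 0.40 for IVL (involucrin, a cornified envelope precursor), -0.17 for KLF4 and -0.51 for KLK7 (a protease of skin shedding), next to -0.61 for CST6. KLK7 is the 1 gene that passed with the block (limma adjusted p = 0.047, against 0.13 without it). With the block 14.2% of all probe sets were called higher in mesenchymal tissue. The list's median was -0.17, and 0.05 with quantile normalization. SPINK5 and OVOL1, a protease inhibitor and a transcription factor of skin, stayed under the bound for low probe sets.

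The proteases that CST6 is known to inhibit, with other cathepsins and cystatins, were tested in the same way. Of 14 listed genes 10 were measured and tested. Differences lay below 0 for 8 of the 10, and for 9370 of all 17130 probe sets. As lower in epithelial tissue 2 of the 10 passed, against 6.4% of all probe sets. With the animal as a random block 3 of the 10 passed as lower, against 14.2% of all probe sets. With quantile normalization 1 of the 10 passed, against 1417 of all 17130 probe sets in either direction. Cathepsin D, CTSD, an aspartic protease of the lysosome, was 8.26 ± 0.28 in epithelial and 9.56 ± 0.44 in mesenchymal tissue (SD, n = 5 each), a difference of -1.30 ± 0.23 (SE, limma adjusted p = 0.011). Cystatin B, CSTB, an inhibitor of cathepsins inside the cell, had -0.84 ± 0.22 (SE, limma adjusted p = 0.038), but -0.40 with quantile normalization (adjusted p = 0.24, against 0.013 with the random block). The known CST6 targets legumain, LGMN, and cathepsin V, CTSV, had differences of -0.58 and -0.15 and did not pass. The list's median was -0.39, and -0.05 with quantile normalization. In the paired teat differences all 10 had epithelial means below 0, with a median of -0.11 (0.00 over all probe sets). Of all 17661 probe sets 8783 had means below 0. Without 1103 all 10 were still below 0, with a median of -0.06 (0.01 over all probe sets). The count over all probe sets is not given without 1103. In mesenchymal tissue 8 of 10 had means above 0, with a median of 0.06 (0.07 over all probe sets). Of all 17839 mesenchymal probe sets 11830 had means above 0.

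**Figure D5:**
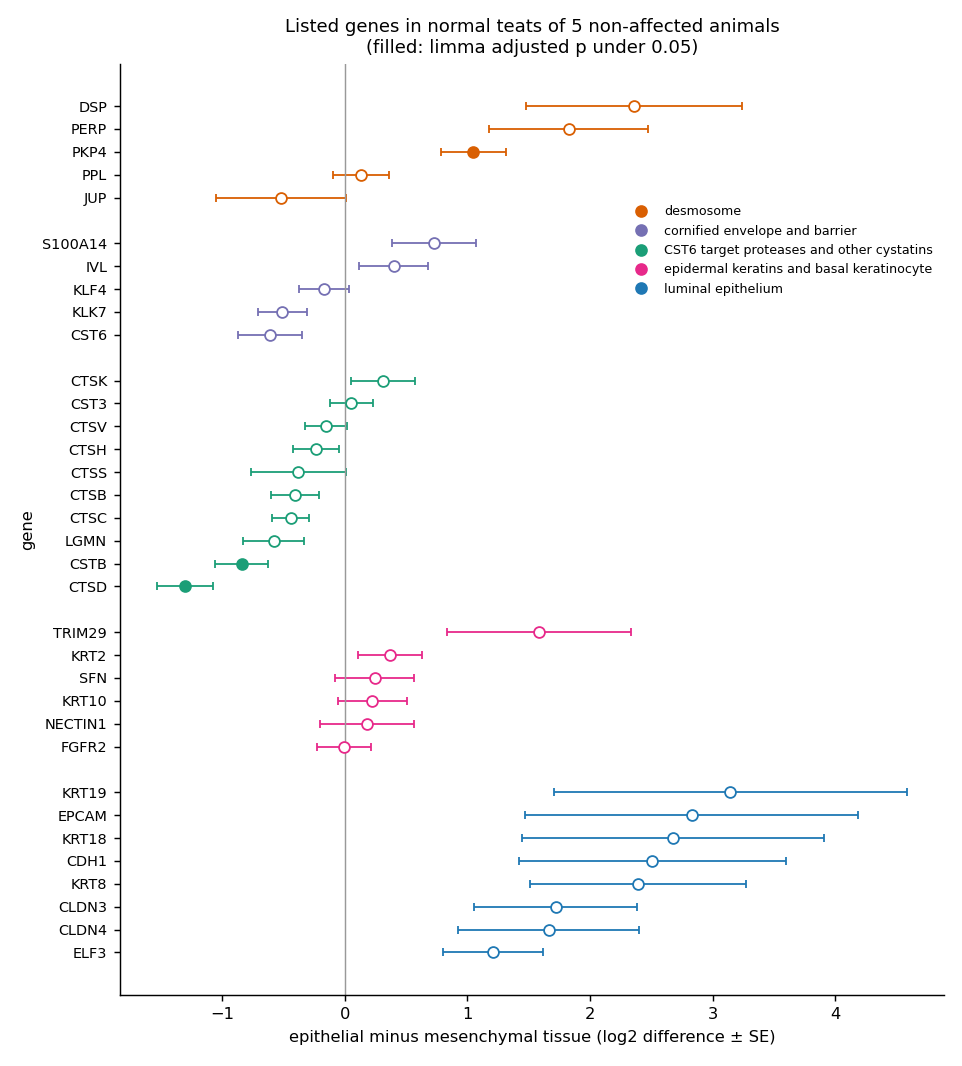
Epithelial minus mesenchymal tissue (log2 difference ± SE, horizontal axis) for the tested genes of 5 lists (vertical axis) in normal teats of the 5 non-affected animals; filled points passed limma's test. PKP4 lies at 1.05, CSTB and CTSD lie at -0.84 and -1.30, and the open points of DSP, PERP and CST6 lie at 2.36, 1.83 and -0.61.

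Genes of other epithelial structures were compared with DSP and PERP in the same tissue test. Of 24 adherens and tight junction genes 10 were tested and 1 passed, MAGI3, a junction scaffold, with 1.28 ± 0.26 (SE, limma adjusted p = 0.017). With the random block 2 of these 10 passed. Of 8 luminal epithelial genes 0 passed by limma (3 with the random block), although all 8 had differences above 0, with a median of 2.45. The list of epithelial transcription and splicing factors also held ST14, a gene of surface proteolysis. Of the 8 genes tested on this list 0 passed (5 with the random block), with a median of 1.54. Over all 17130 probe sets 7760 had differences above 0. Called higher in epithelial tissue were 1.87% of them, and 7.43% with the random block. Of 6 epidermal keratin and basal keratinocyte genes tested 0 passed with or without the block, with a median of 0.23, and TRIM29, a gene of basal keratinocytes, had the largest difference, 1.58. DSP at 2.36 and PERP at 1.83 lay above TRIM29 and below the luminal median.

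The epithelial inverted sample of animal 1103 was low in other epithelial genes beside DSP and PERP. Inverted minus normal, EPCAM differed by -5.33 and CDH1, the adherens junction cadherin, by -5.05 in this animal. Without 1103 their means over 4 animals were 0.07 and 0.11. On the inverted array DSP at 4.63, EPCAM at 4.69 and CDH1 at 4.87 lay just above the array's 30th percentile, 4.61, so their full distance is not measured. CLDN3, ST14 and ESRP1 lay under it, and no difference is given for them.

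All 8 luminal genes were lower by more than 1 in the inverted sample of 1103, the smallest difference being -2.56. Of these, CLDN3 and ELF3 lay under the 30th percentile on that array, so the sizes of their differences are uncertain. Of the desmosome list 3 of 5 were, DSP, PERP and PPL at -1.22, while JUP differed by 0.09 and PKP4 by 0.38. Of the barrier list 2 of 5 were, CST6 at -1.98 and S100A14 at -1.66, while the highest member, IVL, differed by 0.17. The 6 tested epidermal keratin and basal keratinocyte genes ran from -1.87 for TRIM29 to -0.01 for KRT10, with 3 lower by more than 1. Of those 3, SFN and NECTIN1 lay under the 30th percentile on the inverted array. The share of all probe sets lower by more than 1 in this animal is not given, so nothing is read from these counts.

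Over the 5 animals the median paired difference in epithelial tissue was -0.26 for the desmosome list, -0.07 for the barrier list, -0.36 for adherens and tight junctions and -0.81 for luminal genes, against 0.00 over all probe sets. Without 1103 the medians of the same lists were 0.02, -0.02, -0.05 and -0.02. In mesenchymal tissue they were 0.20, -0.002, 0.35 and 1.53, against 0.07 over all probe sets.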

How the data were processed

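The deposited table holds, per the labels, 1 column for each of 30 arrays, and its values were used as deposited. The authors' values are taken to be on a log2 scale from their range, since no label states the base. Per the submitters' processing notes GCOS 1.1.1 and PLIER were used, with no role stated, and whether arrays were normalised to one another is not given in the sources used here (array medians 5.71 to 6.04). Array number limits the precision. P-values of fits without a block measure the spread between the arrays of a group. Both teats of an affected animal enter the fit of each tissue, where those without a block treat them as separate samples. P-values of the tissue comparison with the animal as a block rest on differences between samples of the same animal.

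The tests ran in R 4.3.3 with moderated statistics from limma 3.58.1 and with Benjamini-Hochberg adjustment over all probe sets at 0.05, after 124 control probe sets were left out. Tested probe sets lay above the array's 30th percentile on at least 5 arrays of the fit. Each tissue was fitted over its 15 arrays in 3 groups, and the tissue comparison over 10 arrays of non-affected animals. The scripts were tested on simulated data. Symbols came from the platform table: 10099 probe sets had 1, 198 several and 13826 none here. A gene with several probe sets is represented by the one with the highest mean.

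The genes, lists and tests were chosen with earlier results of these data known. Named by rule were all member probe sets, listed genes past the threshold in the tissue comparison (up to 4 per list), the 3 listed genes with the largest epithelial teat difference, and the 5 genes nearest to a member. JUP, PPL, KLF4, IVL, LGMN, CTSV, KRT10 and the other listed genes named were picked after their values were seen. One gene list is not reported here. Animal numbers pair arrays because they come from the same animal; after removal of group means r within an animal was 0.15 to 0.29 between epithelial and 0.08 to 0.42 between mesenchymal teats, and 0.02 to 0.51 across tissues. Alternatives were quantile normalization, no filter, the animal or breed as a block, 1 breed alone and each animal left out.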

Additional observations from a re-analysis of the deposited data

Results flagged for a closer look

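Among 36 groups of 5 values of the 4 probe sets, or sets of 5 paired differences, 7 had 1 value far from the other 4, by Dixon's ratio above 0.71. Chance puts about 1 in 20 independent groups past that ratio, a rate that does not apply here: most of these values were used to choose the genes, and levels and differences share arrays. The epithelial inverted teat of animal 1103 gave 5 of the 7: a level of 4.63 for DSP and of 5.73 for PERP, and paired differences to its normal teat of -4.69 for DSP, -5.09 for PERP and -1.98 for CST6. The luminal keratin mean of that array was 6.75. The other 2 came from non-affected animal 1058, with a DSP level of 7.64 in epithelial tissue and an epithelial minus mesenchymal difference of -1.70 for CST6. Its keratin mean was 9.27 in epithelial and 2.63 in mesenchymal tissue.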

How the results depend on the processing

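Of 120 alternative fits of the members' differences 105 kept direction and side of the threshold. Another 12 turned the sign of a difference that had not passed, and 3 passed where the fit without a block did not. Most of the 120 set affected against non-affected animals, with 16 epithelial and 15 mesenchymal fits a gene, against 9 of the tissue comparison. Those fits are no independent test of the members, so the count of 105 is not read as support for any difference. The 3 that passed were in the tissue comparison. They were DSP with the animal as a random replicate block (2.36, adjusted p = 0.033 by limma) or a fixed one (2.36, adjusted p = 0.042), and PERP with the random block (1.83, adjusted p = 0.033). All 12 turned signs came from leaving out 1 animal in the comparison of affected with non-affected animals. Over these the difference ran from -0.17 to 0.41 for DSP and from -0.13 to 0.31 for PERP in epithelial tissue, and from -1.24 to 0.28 for DSP and from -0.68 to 0.62 for PERP in mesenchymal tissue. The epithelial DSP value was negative without 964 or 1058 and that of PERP without 1058. The mesenchymal DSP value was positive without 950, 957, 1059 or 1103, and that of PERP without 950, 957, 1037, 1059 or 1103. The count of probe sets called between affected and non-affected animals was 0 throughout in epithelial tissue, and 0 to 1 in mesenchymal tissue when 1 animal was left out (1 without 957). The tissue comparison called 1417 probe sets, 786 with no filter (more probe sets tested), 3714 with the random and 2482 with the fixed replicate block, and 0 to 2520 when 1 animal was left out. Without 1103 the mean paired epithelial difference was 0.00 for DSP, against -0.93 with all 5 animals, 0.11 for PERP, against -0.93, and 0.27 for CST6, against -0.18. The replicate block changed no other call of the members. DSP lay under the 30th percentile on 4 mesenchymal arrays and within 0.1 above it on the inverted arrays of 1037 (mesenchymal) and 1103 (epithelial), which limits how far down a difference can be read, the -4.69 of 1103 included.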
